A study of Sus scrofa with 21 samples.

Results

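Cytotoxic lymphocytes, that is natural killer (NK) cells and killer T cells, carry granules loaded with a pore-forming protein, perforin, and with serine proteases, the granzymes, which enter the target cell through the pores and start its death. Whether a granule is released depends on receptors on the cell surface. NKG2D (KLRK1) and NKp46 (NCR1) activate, CD94 (KLRD1) pairs with NKG2 chains to read MHC class I, and 2B4 (CD244) binds CD48 on other blood cells. In the pig the small lytic peptide NK-lysin takes the place of human granulysin (GNLY). In blood these transcripts come mostly from NK cells, CD8+ T cells and gamma delta T cells, the last of which are abundant in young pigs.

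The expression of 10 such genes was compared between the blood of DD and LW pigs: PRF1, GZMA, GZMB, GZMK, NKG7 and GNLY for the granule and KLRK1, KLRD1, NCR1 and CD244 for the receptors. The genes were chosen by name, through the gene name or the description that the scanner files give each probe. All 10 had at least 1 probe, and together they had 16 of the 60305 non-control probes of the array, which names 12158 genes here. All 16 probes passed the filter that removed the dimmest 25% of probes, so that the 10 genes were among the 10410 genes tested.

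The DD pigs were inbred French SLAdd minipigs, homozygous at the swine MHC (the SLA locus), and the LW pigs were commercial Large White controls. Both breeds were 60 days old, were raised on the same farm and received the same standard diet, and no other treatment was applied to either. The deposited data held 10 DD pigs from 5 litters and 11 LW pigs from 6 litters, with 1 array per pig, and the animals of a litter are siblings. The DD pigs come from 1 inbred herd, so the contrast is between that herd and these LW pigs. Breed, rearing of the sow and every other difference between the herds cannot be told apart.

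The arrays themselves differed between the breeds. Before normalization, array brightness (75th percentile of processed signals, in log2) was 7.53 ± 0.54 (SD, n = 10) in DD and 8.22 ± 0.38 (SD, n = 11) in LW. The share of probes well above background was 44.7 to 61.0% in DD and 53.0 to 63.8% in LW. The gap in brightness depended on the chip, the slide that carries 8 arrays: the DD mean was 7.95 against 8.02 in LW for chip 1, 7.55 against 8.31 for chip 2, and 7.09 against 8.36 for chip 3. No probe was saturated on any array. All values given hereafter are normalized log2 intensities. A level cannot be compared between probes, and only differences between pigs for the same probe or gene are read. In whole blood, fewer cells of a type and less RNA per cell cannot be told apart.

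Of the 10 genes, 7 were lower and 3 higher in DD pigs, against 5929 lower and 4481 higher of all 10410 genes tested. The median log2 difference of the 10 genes was -0.37, against -0.06 over all genes tested. Only GNLY passed the threshold (adjusted p of 0.05, limma with Benjamini-Hochberg adjustment over all genes), and it was lower in DD. This is 10% of the genes, whereas 23.7% of all genes tested passed, 11.1% as higher and 12.5% as lower in DD. As shown by the plot of the values of each pig, the breeds overlapped for all 10 genes.

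**Figure D1:**
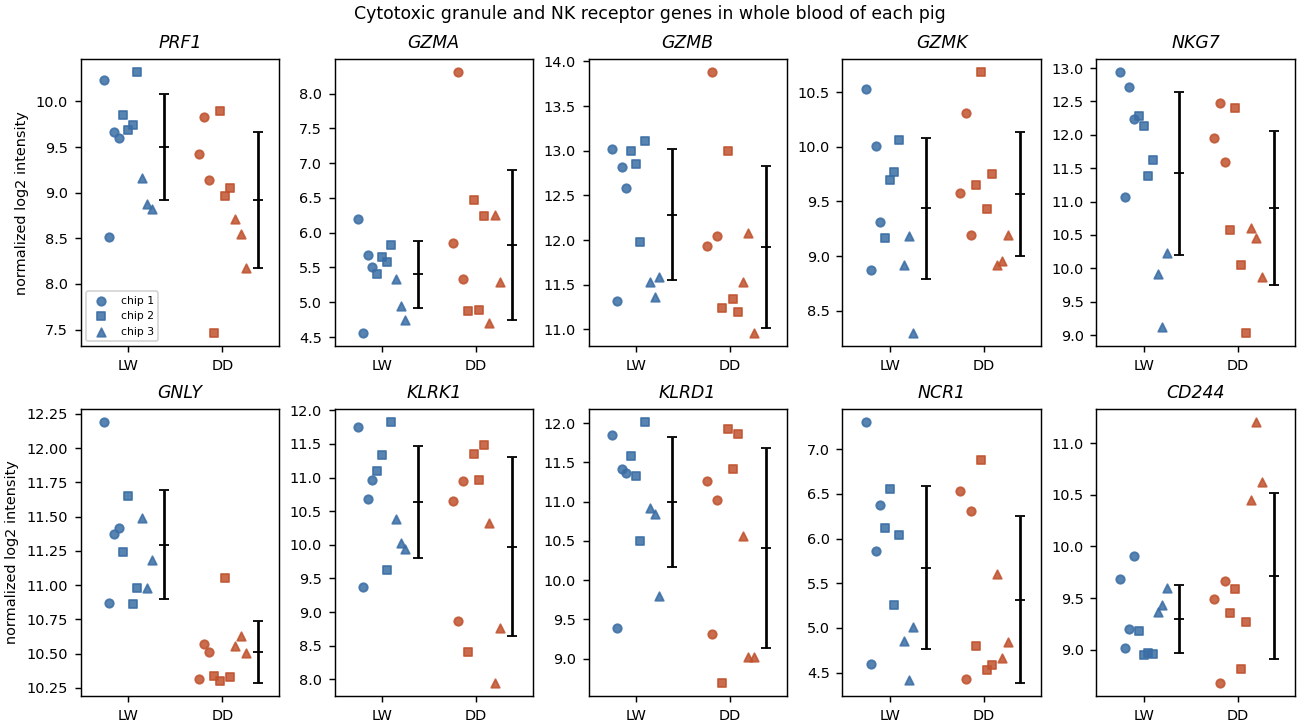
Normalized log2 intensity (vertical axis, own scale in each panel) of the 10 genes in each of 11 LW (blue) and 10 DD pigs (red), with the chip given by the symbol and the mean ± SD of each breed as a black bar. GNLY separates the breeds except for 1 DD pig, whereas the other genes overlap widely and KLRK1 and KLRD1 scatter over several log2 units within DD.

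Among the granule genes, GNLY encodes the lytic peptide, a saposin-like protein that disrupts membranes of bacteria and of target cells. It lies on chromosome 3 at 59067327-59072034 of Sscrofa11.1. Its mean over both probes ranged from 10.30 to 11.05 in DD (median 10.51) and from 10.86 to 12.19 in LW (median 11.24). All but 1 of the DD pigs (9 of 10) were below the lowest LW pig, and the highest DD pig reached into the lower part of the LW range. The log2 difference was -0.77 (SE 0.14, adjusted p = 0.00128, limma), and it was negative on each chip, at -0.999, -0.68 and -0.65 on chips 1, 2 and 3.

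The 2 probes of GNLY gave different sizes of change, and their averaged value is therefore not a level of either. The probes share no stretch longer than 7 bases. Their first 30 bases are shown because the call depends on which probe is read.

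GNLY A_72_P306154: tcacctaactcctgccaccgccctcccctc
GNLY A_72_P246527: agatatttttggggagtgaggatgatgccc

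The first probe was designed on the annotated NK-lysin transcript and was very bright. It read 16.67 to 17.29 in DD (median 16.86) and 16.58 to 17.67 in LW (median 17.22), so that no DD pig was below the LW range. Its log2 difference was -0.21 (SE 0.12, adjusted p = 0.214 over all 45228 probes kept, limma), and within chips it was -0.33, -0.26 and -0.04.

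The second probe was designed on an assembled EST consensus that the array describes as similar to part of pig NK-lysin. It read 3.72 to 5.02 in DD (median 3.99) and 4.29 to 6.75 in LW (median 5.64), with 8 of 10 DD pigs below all LW pigs. Its signal was well above background in only 1 of 10 DD pigs but in 10 of 11 LW pigs, so that most DD values lie near the floor of the array. Its log2 difference was -1.32 (SE 0.21, adjusted p = 0.00038 over all probes, limma), and within chips it was -1.67, -1.10 and -1.27. Over the 21 arrays, after breed and chip means were removed, the probes followed each other weakly (r = 0.25, rho = 0.33). With the bright probe alone GNLY was not called (adjusted p = 0.18 where each gene was read from its brightest probe), and the call at the gene level came from the dim probe. Whether that probe detects the GNLY transcript was not tested.

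**Figure D2:**
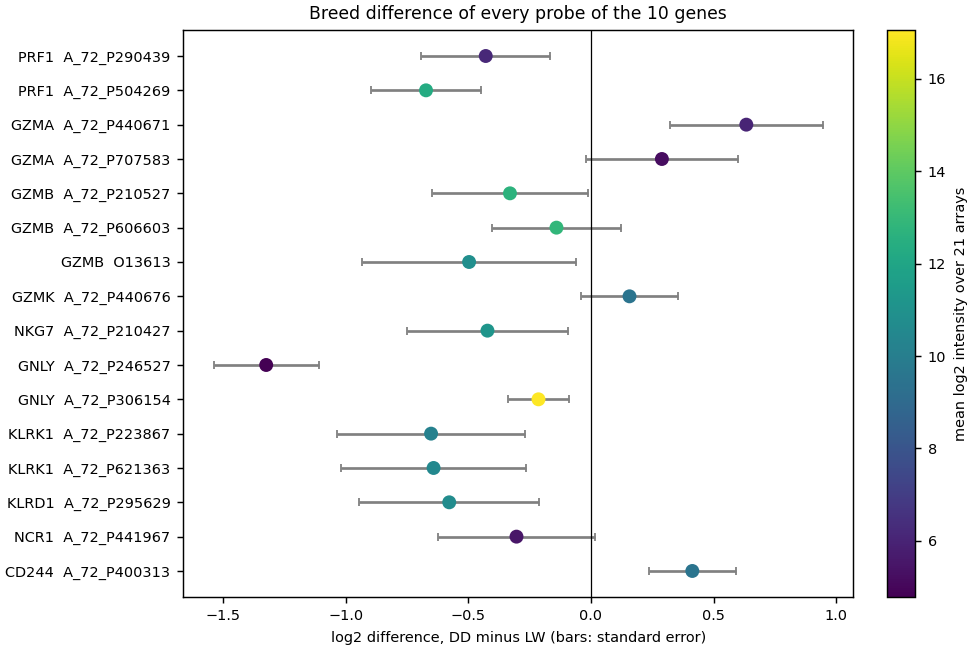
Log2 difference DD minus LW (horizontal axis) of each of the 16 probes, with its standard error as a bar and its mean log2 intensity over 21 arrays as colour. The dim GNLY probe lies at -1.32 and the bright one at -0.21, while the other genes with more than 1 probe show probes on the same side of 0.

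PRF1 encodes perforin, the protein that polymerizes into the pore (chromosome 14, 73515306-73520256). It ranged from 7.46 to 9.90 in DD (median 9.01) and from 8.52 to 10.32 in LW (median 9.66). In all, 2 of 10 DD pigs exceeded the LW median and 2 fell below all LW pigs. The log2 difference was -0.55 (SE 0.23, adjusted p = 0.0877, limma). For the mean of both probes the sign was negative on every chip. The size was not even, at -0.04, -1.06 and -0.47 for chips 1 to 3.

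PRF1 lay near the threshold. It passed without chip 1 (-0.78, adjusted p = 0.0439) and without 1 of 3 single pigs, namely DD 6 (0.0412), DD 11 (0.0457) or LW 4 (0.0315). It was smaller without DD 10 (-0.36, adjusted p = 0.153), without chip 2 (-0.33, adjusted p = 0.239) and with array brightness as a covariate (-0.25, adjusted p = 0.888). Of its 2 probes, the one on the annotated perforin transcript was measured well above background in 7 of 10 DD and 11 of 11 LW pigs, and differed by -0.43 (SE 0.26, adjusted p = 0.239 over all probes). Within chips 1 to 3 the annotated probe differed by 0.07, -1.16 and -0.05, so that its difference came from chip 2. The other, on an EST consensus described as similar to part of mouse perforin, was brighter and differed by -0.67 (SE 0.22, adjusted p = 0.0378 over all probes, limma), with 3 of 10 DD pigs below all LW pigs. Within chips the EST probe differed by -0.16, -0.96 and -0.90. At the level of single probes 21.7% of all probes passed, and this PRF1 probe and the dim GNLY probe were the members among them. The probes of PRF1 followed each other over the arrays (r = 0.84, rho = 0.61). The annotated probe is shown whole, since it is the one that ties the signal to perforin by name.

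PRF1 A_72_P290439: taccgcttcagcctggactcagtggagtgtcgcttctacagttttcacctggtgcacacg

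The granzymes did not move together. GZMB, the aspartate-cutting granzyme of NK cells and killer T cells (chromosome 7, 74705499-74708781), ranged from 10.96 to 13.88 in DD (median 11.73) and from 11.31 to 13.11 in LW (median 12.58). Most DD pigs were in the lower part of the LW range and 3 were below it, but 1 DD pig was above every LW pig. The log2 difference was -0.32 (SE 0.29, adjusted p = 0.420, limma) and came from chip 2 (-1.04), with 0.19 and 0.03 on chips 1 and 3. Without chip 2 it was 0.09, and without DD 6 alone -0.55.

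GZMB was read by 3 probes, and 2 of them lie over each other. These 2 overlap by 44 bases with 3 mismatches, which are T30G, G35A and A36G counted from the 5′ end of the first probe. The 30 bases that hold the mismatches are shown for both, with the differing bases in capitals.

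GZMB A_72_P210527: gaaaagcctctaactTcaggGAccagctgt
GZMB A_72_P606603: gaaaagcctctaactGcaggAGccagctgt

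Despite the mismatches the overlapping probes followed each other closely over the arrays (r = 0.98, rho = 0.96) and differed between breeds by -0.33 and -0.14. The third probe, which carries a human accession, followed them less (r = 0.33 and 0.46, rho = 0.41 and 0.58) and differed by -0.50 (SE 0.44). None of the 3 passed (adjusted p = 0.469, 0.727 and 0.423 over all probes, limma). On chips 2 and 3 the third probe differed by -1.80 and 0.68, against -0.75 and -0.43 for the first and -0.59 and -0.16 for the second.

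GZMA, a trypsin-like granzyme, was the granule gene with the highest positive difference, at 0.46 (SE 0.31, adjusted p = 0.272, limma). It ranged from 4.70 to 8.31 in DD (median 5.59) and from 4.55 to 6.20 in LW (median 5.50). The medians were close, whereas 4 of 10 DD pigs exceeded every LW pig, so that the difference lay in the upper tail of DD. The SD was 1.08 in DD and 0.48 in LW. The highest DD pig, DD 6 at 8.31, had a great weight: without it the difference was 0.16. On chips 1, 2 and 3 the difference was 1.02, 0.01 and 0.41, and DD 6 was on chip 1.

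The signal of GZMA was low, being well above background in 8 of 10 DD and 11 of 11 LW pigs for one probe and in 4 of 10 and 8 of 11 for the other, and both probes followed each other (r = 0.94, rho = 0.93). RefSeq gives the symbol GZMA to a pair of neighbouring genes on chromosome 16, at 34262495-34272084 and 34282160-34290422, and which of them the probes read was not tested. GZMK, another trypsin-like granzyme, lies beside them at 34217339-34226139. It ranged from 8.92 to 10.68 in DD (median 9.50) and from 8.29 to 10.53 in LW (median 9.31), with a log2 difference of 0.16 (SE 0.20, adjusted p = 0.571, limma). The GZMK values of the breeds overlapped over almost their whole range, and the differences on the chips ran from 0.02 to 0.22.

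NKG7 encodes a membrane protein of the granule that takes part in its release (chromosome 6, 58496089-58497827). It ranged from 9.03 to 12.48 in DD (median 10.59) and from 9.12 to 12.94 in LW (median 11.62). Both breeds spanned more than 3 log2 units, and 3 of 10 DD pigs exceeded the LW median. The log2 difference was -0.42 (SE 0.33, adjusted p = 0.349, limma), with -0.23, -1.34 and 0.55 on chips 1, 2 and 3, 0.08 without chip 2 and -0.21 without DD 16 alone.

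Within DD, the granule genes other than GNLY had in common the pigs at the top of their range. The 2 siblings of 1 DD litter, DD 6 and DD 11, were the highest DD pigs for PRF1 (9.83 and 9.90), GZMA (8.31 and 6.46), GZMB (13.88 and 13.00), GZMK (10.31 and 10.68) and NKG7 (12.48 and 12.41). For GNLY the same pigs stood at 10.57 and 10.30, the second being the lowest DD value. The siblings parted for the receptors: KLRK1 was 8.87 in DD 6 and 11.35 in DD 11, and NCR1 was 4.43 and 6.88, which are the lowest and the highest DD values. DD 6 was on chip 1 and DD 11 on chip 2. In LW, granule and receptor genes shared their extreme pigs. LW 15 was the highest LW pig for PRF1, GZMB, KLRK1 and KLRD1, and LW 2 for GZMA, GZMK, NKG7, GNLY and NCR1. LW 4 was the lowest for PRF1, GZMA, GZMB, KLRK1 and KLRD1.

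KLRK1 and KLRD1 lie next to each other in the NK gene complex on chromosome 5, at 61646691-61655386 and 61662083-61673109. KLRK1, the receptor for stress-induced ligands, ranged from 7.95 to 11.49 in DD (median 10.49) and from 9.37 to 11.83 in LW (median 10.68). The medians were close, but 4 of 10 DD pigs (DD 6, DD 10, DD 21 and DD 23) were below the lowest LW pig. The log2 difference was -0.65 (SE 0.38, adjusted p = 0.213, limma), with -0.53, -0.42 and -1.11 on chips 1, 2 and 3.

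KLRD1 showed the same picture. It ranged from 8.69 to 11.92 in DD (median 10.79) and from 9.39 to 12.02 in LW (median 11.32), and the same 4 DD pigs were below the lowest LW pig. Its log2 difference was -0.58 (SE 0.37, adjusted p = 0.251, limma), with -0.47, -0.38 and -0.98 on the chips. Without DD 10 alone, KLRD1 differed by -0.33 and KLRK1 by -0.42. The 4 pigs came from 4 litters. Their siblings DD 11, DD 1, DD 8 and DD 13 had KLRK1 at 11.35, 10.66, 10.95 and 10.96, so that low and high values occurred within each of these litters. KLRD1 was read from 1 probe, designed on a predicted pig transcript described as CD94-like. That record was not matched to the RefSeq gene KLRD1, and the name rests on its description.

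The 2 probes of KLRK1 overlap by 14 bases, which are in capitals. Both are shown whole so that the extent of their overlap can be seen.

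KLRK1 A_72_P621363: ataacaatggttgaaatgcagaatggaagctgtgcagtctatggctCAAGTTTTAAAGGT
KLRK1 A_72_P223867: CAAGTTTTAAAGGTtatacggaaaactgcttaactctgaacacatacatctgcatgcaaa

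These probes followed each other at r = 0.99 (rho = 0.98). Neither shared more than 5 bases in a row with the KLRD1 probe, which nevertheless followed KLRK1 at r = 0.95 (rho = 0.94).

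NCR1 encodes NKp46, an activating receptor of NK cells (chromosome 6, 59092258-59099992). It ranged from 4.43 to 6.88 in DD (median 4.82) and from 4.42 to 7.31 in LW (median 5.86). The signal was well above background in 4 of 10 DD and 8 of 11 LW pigs, and no DD pig was outside the LW range. The log2 difference was -0.30 (SE 0.32, adjusted p = 0.496, limma), with -0.28, -0.79 and 0.28 on the chips, and it was -0.14 without DD 6 alone.

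CD244, the SLAM family receptor for CD48, was the only receptor with a positive difference, at 0.41 (SE 0.18, adjusted p = 0.0892, limma). It lies on chromosome 4 at 89668221-89700974. It ranged from 8.68 to 11.21 in DD (median 9.54) and from 8.94 to 9.91 in LW (median 9.21). The 3 DD pigs above every LW pig were the 3 of chip 3, while 2 DD pigs were below every LW pig.

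The CD244 difference ran from -0.18 (chip 1) over 0.24 (chip 2) to 1.29 on chip 3, where the brightness of DD and LW arrays differed most. Over the 21 arrays CD244 fell as brightness rose once breed and chip means were removed (r = -0.74, rho = -0.56), while r with brightness was -0.08 to 0.34 for the other 9 genes. With brightness as a covariate the difference was -0.08. The gene passed the threshold without chip 1 (0.68, adjusted p = 0.0156), without DD 6 (0.0152) and without LW 7 (0.0405).

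**Figure D3:**
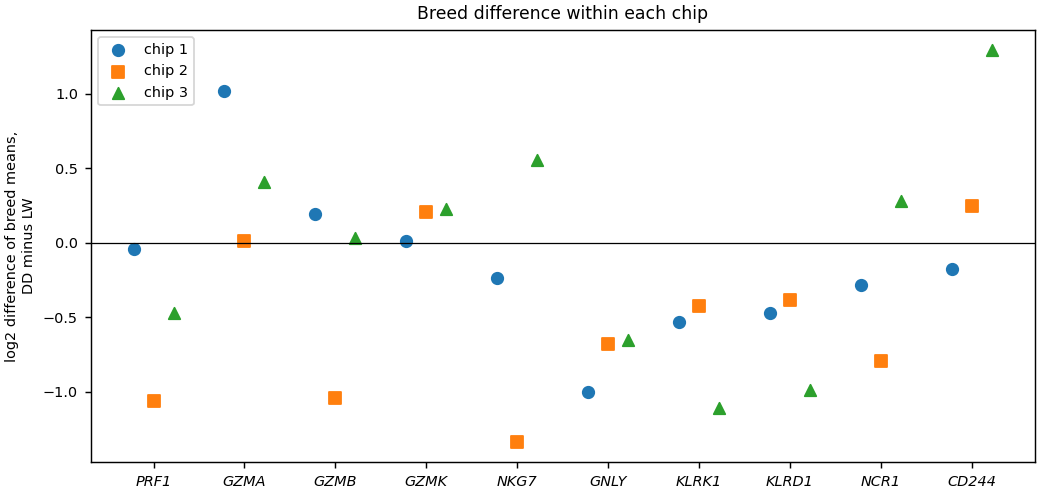
Log2 difference between the DD and LW means on each chip (vertical axis) for the 10 genes, with chip 1 as circles, chip 2 as squares and chip 3 as triangles (3 DD and 4 LW, 4 and 4, and 3 and 3 arrays). GNLY, KLRK1 and KLRD1 stay between -0.38 and -1.11 on all chips, whereas NKG7 runs from -1.34 to 0.55 and CD244 from -0.18 to 1.29.

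Across chips, 6 of the 10 genes kept 1 sign and 4 (GZMB, NKG7, NCR1 and CD244) did not. Of the 6, GZMA differed by only 0.01 on chip 2, and GZMK by 0.02 and PRF1 by -0.04 on chip 1. Single probes turned there, at -0.17 for the dimmer GZMA probe and 0.07 for the annotated PRF1 probe. The variation between pigs of 1 breed was large for most of the 10 genes. The residual SD, after breed and chip means were removed, was 0.95 for KLRK1, 0.92 for KLRD1, 0.81 for NKG7, 0.80 for NCR1, 0.74 for GZMA and 0.69 for GZMB. These values were higher than those of 96.4 to 99.3% of all genes tested. In contrast, the residual SD of GNLY was 0.31, close to the middle of all genes (52.1%). This SD is that of the mean of a bright and a dim probe, and the dim one lay near the floor in most DD pigs. A difference of -0.77 passed for GNLY, while one of -0.65 for KLRK1 did not.

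The genes were then compared by how they varied among pigs of the same breed and chip, with Pearson's r over the 21 arrays as a description. The arrays share chips and litters, and no test was made. The 5 granule genes other than GNLY followed each other, with r from 0.40 to 0.80 over 10 pairs (median 0.61). GZMB and NKG7 were the closest of these (r = 0.80, rho = 0.84), followed by GZMA and GZMB (r = 0.78, rho = 0.68) and by PRF1 and GZMB (r = 0.75, rho = 0.71). KLRK1 and KLRD1 were the closest pair (r = 0.95). Over both breeds together KLRK1 followed the granzymes and NKG7 weakly. It had r = -0.04 with GZMA (rho = 0.13), 0.12 with GZMB (rho = 0.16), 0.18 with GZMK (rho = 0.14) and 0.06 with NKG7 (rho = 0.15). DD 6 had the highest GZMA (8.31) with a low KLRK1 (8.87). In LW, by contrast, LW 4 was lowest for both (4.55 and 9.37), and LW 15 was high for both (5.82 and 11.83). No r was computed within 1 breed. PRF1 stood between the granzymes and this pair, with r = 0.57 and 0.66 to KLRK1 and KLRD1. NCR1 was closest to NKG7 (r = 0.68) and also followed KLRK1 (r = 0.59) and KLRD1 (r = 0.56). GNLY had r of at most 0.34 with any of the others, as the mean of 2 probes that followed each other weakly, and CD244 reached 0.55, with NCR1. Once array brightness was removed as well, CD244 had r = 0.73 with NCR1 and with NKG7, 0.48 with GZMB and 0.44 with PRF1.

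**Figure D4:**
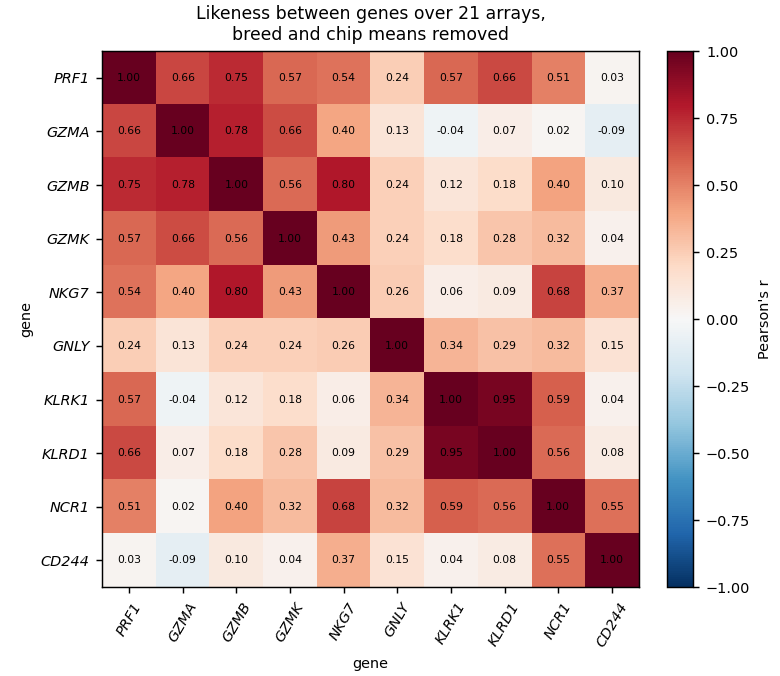
Pearson's r between each pair of the 10 genes over 21 arrays after the breed and chip means were removed, with the gene on both axes and red for positive and blue for negative r. KLRK1 and KLRD1 lie at 0.95, and PRF1, the granzymes and NKG7 at 0.40 to 0.80 with each other. The groups are not separate, since PRF1 (0.57 and 0.66) and NCR1 (0.59 and 0.56) also follow KLRK1 and KLRD1. GNLY stays at or below 0.34 with every other gene. CD244 reaches 0.55 here and 0.73 once array brightness is removed as well.

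Among all genes tested, the 3 most like each member were found in the same way. For PRF1 they were CCL4 (r = 0.89), SAMD3 (0.88) and DUSP14 (0.87), and CCL4 is a chemokine released by activated cytotoxic cells. For KLRK1 they were KLRD1 (0.95), SPRY2 (0.94) and B3GNT7 (0.93), and for KLRD1 SPRY2 (0.96), KLRK1 (0.95) and ADGRG1 (0.92), an adhesion receptor known from human cytotoxic lymphocytes. For NKG7 they were DAPK2 (0.92), PRKCH (0.91) and FLNA (0.90). NCR1 was most like PTH1R (0.88), TESC (0.84) and CCL5 (0.84), the last being a chemokine stored by cytotoxic lymphocytes. GZMA was most like PPA1 (0.88) and MAD2L2 (0.88), GZMB like GBP1 (0.87), TMEM107 (0.82) and NKG7 (0.80), and GZMK like RIPK3 (0.84), OSTF1 (0.82) and PSMB9 (0.79). For GNLY the highest values were lower, with CTSA (0.70), URGCP (0.66) and GALNS (0.66), of which CTSA and GALNS encode lysosomal enzymes. CD244 was most like SMPD1 (0.90), ACOT8 (0.89) and KLHDC10 (0.89).

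The other genes of NK cell and granule biology were read from 6 lists by role. Of 63 listed genes 52 were tested, and 12 of them passed (23.1%, against 23.7% of all genes), 1 as higher and 11 as lower in DD. The split depended on the scaling, with 3 higher and 8 lower after scaling to the 75th percentile and 5 higher and 6 lower after cyclic loess, where CD247, CTSW, IL15, RAB27A and VAV1 did not pass. The median log2 difference of the 52 genes was -0.18. Of the 13 granule genes, 2 passed (15.4%, against 23.7% of all genes), both lower in DD. They were CTSW, a cathepsin of cytotoxic lymphocytes (-0.66, SE 0.18, adjusted p = 0.0163, limma), and RAB27A, the GTPase that docks granules at the membrane (-0.35, SE 0.11, adjusted p = 0.0306). The other granule genes did not pass, among them GZMH (-0.35), GZMM (0.07), the granule proteoglycan SRGN (-0.37) and the trafficking regulator LYST (0.45).

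Of 11 receptors tested, 2 passed (18.2%, against 23.7% of all genes). KLRG1, an inhibitory receptor of mature cytotoxic cells, fell in DD. It ranged from 6.62 to 8.39 in DD (median 7.52) and from 7.68 to 9.14 in LW (median 8.12), with 6 of 10 DD pigs below all LW pigs (-0.76, SE 0.19, adjusted p = 0.0108, limma). The killer immunoglobulin-like receptor KIR2DL1 rose in DD, from 12.62 to 14.90 (median 13.44) against 11.90 to 14.25 in LW (median 12.99), with a difference of 0.54 (SE 0.16, adjusted p = 0.0262). KLRC1, the NKG2A chain that pairs with CD94, differed by 0.21 (SE 0.39, adjusted p = 0.719). The ligands ULBP1 of NKG2D (-0.26, adjusted p = 0.0551) and CD48 of 2B4 (-0.07, adjusted p = 0.737) did not pass.

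Of the 10 signalling partners tested, 4 passed (40%, against 23.7% of all genes), all lower in DD. HCST, the DAP10 adaptor that carries the signal of NKG2D, ranged from 10.48 to 11.58 in DD (median 11.16) and from 10.97 to 12.27 in LW (median 11.64). No DD pig exceeded the LW median (-0.51, SE 0.11, adjusted p = 0.00579, limma). Its own receptor gene KLRK1 had a difference of similar size, -0.65, with an SE over 3 times as large. CD247, the zeta chain used by NKp46 and by the T cell receptor, fell by 0.63 (SE 0.20, adjusted p = 0.0282), the exchange factor VAV1 by 0.29 (SE 0.10, adjusted p = 0.0351) and the adaptor LCP2 by 1.01 (SE 0.15, adjusted p = 0.000259). LCP2 ranged from 10.96 to 11.35 in DD and from 10.74 to 12.78 in LW, with medians of 11.19 and 12.32. TYROBP, the DAP12 adaptor, which myeloid cells also express (0.11, adjusted p = 0.752), and SH2D1A, the adaptor of CD244 (-0.41, adjusted p = 0.184), did not pass.

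Among regulators and cytokines, ID2, a factor needed for the NK lineage, fell by 0.54 (SE 0.15, adjusted p = 0.0161, limma). It was 1 of 7 regulators tested (14.3%, against 23.7% of all genes). Of the 9 genes tested from the list of cytokines, chemokines and related receptors, 3 passed (33.3%, against 23.7% of all genes). All 9 had a negative difference, as had 5929 of all 10410 genes tested. Those that passed were IL15, the survival factor of NK cells (-0.58, SE 0.19, adjusted p = 0.0329), IL18R1, a receptor chain for IL18 (-0.34, SE 0.10, adjusted p = 0.0268), and CCL5. CCL5 ranged from 10.49 to 13.50 in DD (median 11.69) and from 11.41 to 14.12 in LW (median 13.24), and 1 of 10 DD pigs exceeded the LW median (-1.10, SE 0.31, adjusted p = 0.0182). T-bet (TBX21, 0.49, adjusted p = 0.0754) and EOMES (-0.24, adjusted p = 0.46), both drivers of the cytotoxic programme, did not pass.

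**Figure D5:**
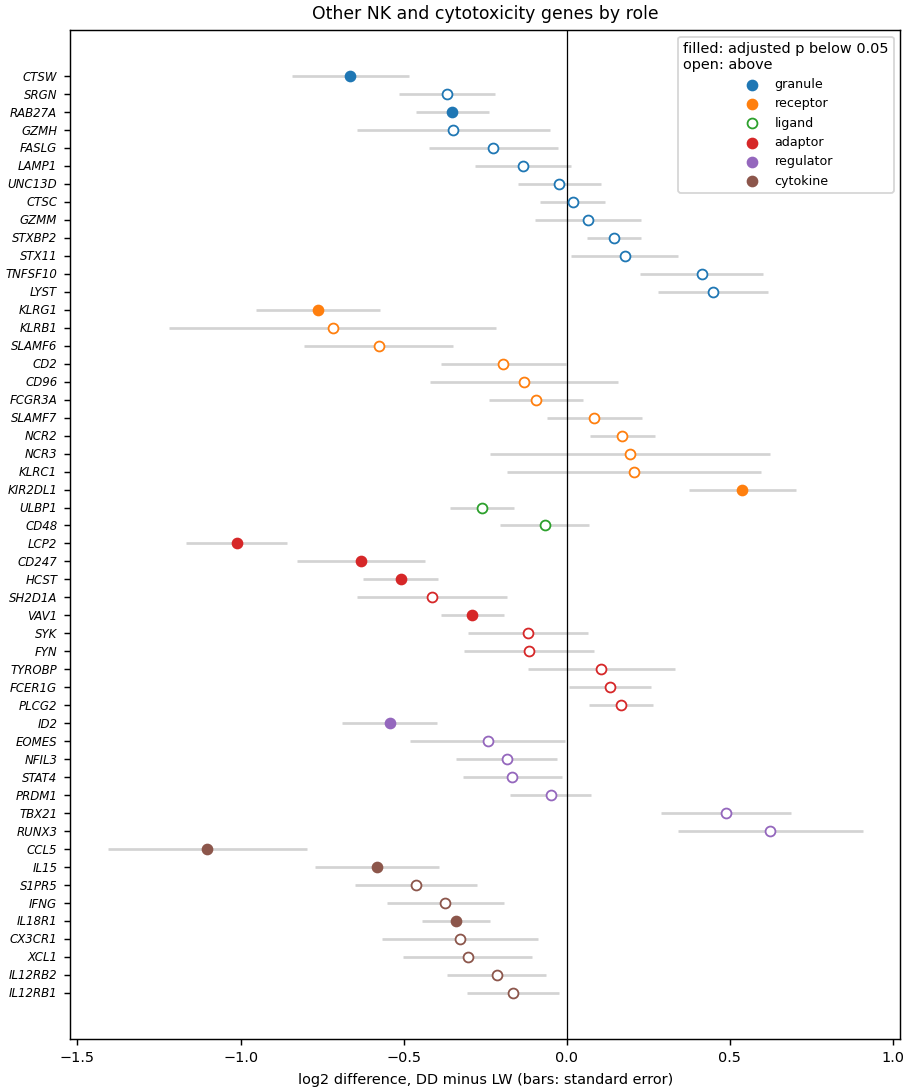
Log2 difference DD minus LW (horizontal axis) with its standard error for the 52 other NK and cytotoxicity genes tested, coloured by list, filled where the adjusted p was below 0.05. Of the 12 filled points, 11 lie below 0, from CCL5 at -1.10 to VAV1 at -0.29, and KIR2DL1 lies at 0.54, whereas cyclic loess gave 6 lower and 5 higher calls.

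A negative difference was found for 5929 of the 10410 genes tested. Of 9 listed T cell markers 8 were tested, and all 8 had one (median -0.54). Of these 3 passed (37.5%, against 23.7% of all genes), namely CD3D (-0.58, adjusted p = 0.012), CD3G (-0.64, adjusted p = 0.00407) and CD8A (-0.64, adjusted p = 0.0453, limma). Their summed level (log2 of the summed intensities) was 11.25 to 12.65 in DD (median 12.18) and 11.87 to 12.84 in LW (median 12.52). B cell markers had 4 of 4 positive differences, against 4481 of the 10410 genes tested, and none of the 4 passed. Their summed level was 10.90 to 12.64 in DD and 10.92 to 13.04 in LW. The summed monocyte markers (8.04 to 10.77 in DD, 8.73 to 10.29 in LW), granulocyte markers (10.15 to 12.43 and 10.75 to 13.00), erythroid markers (15.82 to 18.20 and 16.21 to 18.48) and platelet markers (11.46 to 13.68 and 12.18 to 14.14) overlapped between breeds. Single markers of these types passed in both directions: CD163 (-0.72, adjusted p = 0.0206) and CSF1R (0.63, adjusted p = 0.0482) among 3 monocyte markers, and ALAS2 (0.75, adjusted p = 0.0359, limma) among 3 erythroid markers. Markers of every listed blood cell type were thus measured in both breeds, and the part of T cell number in the differences of the cytotoxic genes was not tested.

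Most of the 12 calls were lost in 3 settings. Without the chip term 3 remained (HCST, KLRG1 and LCP2). With array brightness as a covariate 1 remained, LCP2, while the count over all genes fell from 2464 to 243. Without chip 3, none of the 52 genes nor of the 10 members passed by limma, with 114 genes passing among all. GNLY passed with brightness as a covariate (-0.76) and did not without chip 3 (-0.84, adjusted p = 0.0555).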

How the data were processed

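RNA from the whole blood of 10 DD and 11 LW pigs was hybridised in one colour to a custom Agilent pig array (3 chips, each pig on its own array). Of 24 animals processed, the authors removed 3 arrays as outliers. The deposited scanner files hold intensity values and flags from Agilent Feature Extraction 10.7.3.1, as named in the submitters' processing notes. The deposited matrix holds log2 values that the authors background corrected with normexp and quantile normalized. These log2 values were used for all differences, and the intensity values and flags for brightness and for the calls above background. The matrix held 2477 rows without a probe ID, which were left out.

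Probes were named from the gene name, accession or description in the scanner files, with symbols updated through the RefSeq table of Sscrofa11.1 (25425 probes, 12158 genes). Coordinates are those of the RefSeq genes. Probe sequences come from the scanner files, and their place in the transcript was not tested. The 25% of probes with the lowest mean were removed and kept probes of a gene were averaged.

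Differences were fitted with limma 3.58.1 (R 4.3.3) with fixed effects for breed and chip and duplicateCorrelation for the sow (consensus correlation -0.10), with eBayes and Benjamini-Hochberg adjustment over the 10410 genes, at an adjusted p of 0.05. Without the sow block 1859 of the 10410 genes passed, against 2464 with it, while GNLY and the same 12 listed genes passed in both. Over all genes, 47.0% of calls were higher in DD, 64.2% after scaling to the 75th percentile and 65.7% after cyclic loess. On simulated data for this contrast (10410 genes), 94 of 100 genes with a log2 change of 1 and 98 of 100 with 1.5 were recovered. In the same run 11 unchanged genes were called. The simulated noise had no chip, litter or brightness effects, and the changed genes were drawn from all genes. These rates therefore need not hold for members with a large residual SD, such as KLRK1 (0.95). The number of arrays limits the precision.

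The genes named are the 10 members with each probe, the listed genes past the threshold, fixed partners (HCST, TYROBP, CD48, SH2D1A, ULBP1, KLRC1) and the 3 genes most like each member, of which 1 is not reported here. Other listed genes were named after their values were seen. The members and lists were chosen with earlier results of these data known. Alternatives were other background correction, scaling, filters and probe summaries, litter means, omission of the sow block or the chip term, brightness as a covariate, moderated variance with a trend, and leaving out each chip or pig.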

Additional observations from a re-analysis of the deposited data

Results flagged for a closer look

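The highest DD pig for GZMA, DD 6 with 8.31, lay far from the other 9 DD pigs, of which the next, its sibling DD 11, had 6.46. The highest DD pig for GNLY, DD 13 with 11.05, lay far from the others likewise, the next being at 10.63. A gap of this size between the extreme pig and its neighbour occurs by chance in about 1 of 20 groups, and both ends of 10 genes were examined in the DD pigs. The 11 LW pigs were not examined in this way.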

How the results depend on the processing

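The difference of the 10 members kept its sign and its side of the threshold in 205 of 210 fits that left out 1 pig. In the other fits it did so in 150 of 159. Only GNLY was called with all pigs, so for every other member this mostly means that it stayed uncalled. The fits also share most of their pigs, so these counts do not measure robustness. GNLY was called in 13 of its 16 other fits. Sizes ran from -0.94 to 0.08 for NKG7 and from -0.08 to 0.68 for CD244. The number of members called was 1 (GNLY) with all pigs and 1 to 3 when 1 pig was left out. It was 3 without chip 1 (PRF1, GNLY and CD244), 2 when every probe was tested on its own, and 0 without chip 3. With the brightest probe of each gene PRF1 passed (-0.67, adjusted p = 0.031) and GNLY did not (-0.21, adjusted p = 0.18). Without the 4 member probes that stood on EST records or a human accession, a choice made after seeing the data, 0 members passed (GNLY -0.21, adjusted p = 0.188), and CD244, with only such a probe, had no value. Over all alternatives the adjusted p of GNLY ran from 0.000457 to 0.188 and its size from -0.85 to -0.21. With a normexp offset of 50 in the background correction the GNLY difference was -0.35 (SE 0.08). The sign turned for GZMB (0.09) and NKG7 (0.0785) without chip 2 and for CD244 (-0.076) with brightness as a covariate. The 12 other genes called became 3 without the chip term, 1 with brightness as a covariate, 0 without chip 3, and 7 to 15 when 1 pig was left out, with the 7 without DD 21. Over all genes the 2464 calls became 713, 243 and 114 in the first 3 of these settings and 1359 (without DD 21) to 3425 (without DD 6) with 1 pig left out, and 9809 probes passed when each was tested. The causes were not tested. Without chip 3 the fit holds 15 pigs. Differences of the dim probes of GNLY, GZMA and NCR1 are limited by signal close to background. No paired analysis of the breeds was possible, because DD and LW pigs are different animals from different litters and siblings share a breed.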
